A study of Caenorhabditis elegans with 2 samples.

Results

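The authors derived a set of 2082 peaks of RNA polymerase II from 2 replicates of Caenorhabditis elegans larvae. Of these peaks, 367 (17.6%) had their summit at the end of a protein-coding gene and far from any start. These gene-end summits are described here. A summit was taken when it lay within 500 bp of the outermost annotated 3′ end of a protein-coding gene and over 1000 bp from the outermost 5′ end of every protein-coding gene. The choice used positions only, so it did not set the height of the peak. Its window is symmetric round the end, so it did not set the side either, except at convergent genes. There a base counts for the nearer end, which fixes the side where the genes overlap and limits it where the gap is short. The 367 summits had their nearest ends at 356 genes, and 11 of these genes had 2 summits each. Such a summit was possible at 13966 of 19973 protein-coding ends, of which 2.55% were the nearest end of one. The study immunoprecipitated chromatin with an antibody against AMA-1, the catalytic subunit of RNA polymerase II, and sequenced it (ChIP-seq). The animals were the wild-type strain N2 at the L4 stage, the last larval stage, taken whole with males and females pooled. All libraries belonged to that 1 group, with 2 biological replicates, so no condition is compared and no treatment or mutation is involved. The peaks form the irreproducible discovery rate set (IDR set), which the authors made from both replicates and their pooled alignments, and signal means the authors' value for the height of a peak, which has no unit. Signal values have different scales in the IDR set and in each replicate's list, so ranks are given beside them.

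RNA polymerase II does not stop at the last base of a message. The transcript carries a poly(A) signal, most often AAUAAA, shortly before the site where it is cleaved and polyadenylated, and the polymerase transcribes on until it is released, a step in which the exonuclease XRN-2 degrades the RNA that is still attached. Polymerase often slows beyond the poly(A) site, so ChIP signal can gather there. In the compact genome of C. elegans many genes face each other tail to tail, and the polymerase leaving one gene then enters the other from its end.

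The last 30 bases of 5 of the nearest-end genes are shown to place the poly(A) signal against the annotated end, which is the last base of each line. All coordinates are on ce11 (WBcel235), each sequence reads 5′ to 3′ along its gene, and AATAAA is in capitals.
col-10, chrV:9164292-9164321, - strand: tatcaaAATAAAatcattttcattcaaatt
xbp-1, chrIII:4195329-4195358, + strand: atatttAATAAAaacagccatacatttttg
hsp-1, chrIV:17281301-17281330, + strand: tagaatggtgaacAATAAAaaaattaaaat
ubq-1, chrIII:5943812-5943841, + strand: tctgAATAAAttcattttcgtgtactcaaa
mdl-1, chrX:6743870-6743899, + strand: atatagaagtAATAAAcatttttgcattgc
AATAAA began 24 bases from the end at col-10 and xbp-1, 17 at hsp-1, 26 at ubq-1 and 20 at mdl-1, counting the end itself as 1.

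The 50 bases on each side of 6 of the summits that lay beyond the end in no annotated gene are shown next, because they hold the point of highest signal past the gene. The 11 bases in capitals have the summit at their centre.
mak-1, chrII:8747334-8747434, + strand: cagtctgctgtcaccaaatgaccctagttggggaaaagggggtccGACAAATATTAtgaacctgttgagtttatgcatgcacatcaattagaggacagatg
col-10, chrV:9164090-9164190, - strand: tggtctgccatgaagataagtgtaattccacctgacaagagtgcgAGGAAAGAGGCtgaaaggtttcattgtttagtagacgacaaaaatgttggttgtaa
mdh-2, chrIII:6606298-6606398, - strand: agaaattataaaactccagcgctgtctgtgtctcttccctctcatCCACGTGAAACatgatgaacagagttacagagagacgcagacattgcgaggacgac
xbp-1, chrIII:4195404-4195504, + strand: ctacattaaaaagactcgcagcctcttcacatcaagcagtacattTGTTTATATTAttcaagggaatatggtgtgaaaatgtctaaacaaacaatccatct
egl-9, chrV:10476935-10477035, + strand: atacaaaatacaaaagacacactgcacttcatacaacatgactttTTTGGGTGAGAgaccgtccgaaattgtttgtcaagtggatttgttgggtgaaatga
vha-14, chrIII:9509856-9509956, + strand: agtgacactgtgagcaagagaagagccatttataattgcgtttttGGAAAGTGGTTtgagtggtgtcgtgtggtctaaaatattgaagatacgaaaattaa
These summits stood 134, 152, 196, 96, 70 and 149 bp beyond the ends of the genes. Their G+C share ran from 33.7% at xbp-1 to 46.5% at mdh-2.

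Most gene-end summits lay just past the gene rather than in it. Of the 367, 290 (79.0%) lay beyond the annotated end, against 51.6% of the bases where a summit could have been taken. These 290 include 103 at overlapping convergent genes, where the geometry fixes the side. The median offset was 107 bp beyond the end, with quartiles of 35 and 175 bp, and 216 summits (58.9%) fell in the first 200 bp past it. Only 31 lay over 200 bp inside the gene and 26 over 300 bp beyond it. The density was 66.2 summits per Mb beyond the ends and 18.7 per Mb inside, against 20.8 per Mb for all IDR summits over the whole genome. In their own 2082 strongest peaks the replicates held 389 gene-end summits (replicate 1) and 340 (replicate 2). Of these, 79.7% and 75.9% lay beyond the end, a mean of 77.8% ± 2.69 (SD, n = 2), and the median offsets were 125 and 81.5 bp. Most summits thus lay beyond the end in both replicates. The 2 medians were taken over different sets of sites. At the 269 members matched in both replicates' full lists, the median offsets were 119 bp in replicate 1 and 103 bp in replicate 2. Pair by pair the median difference was 2 bp, but the matching within 100 bp limits how large it can be. Why the offsets of the replicates differed was not tested.

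The clearest case was the end with no protein-coding gene facing it from an end within 1000 bp. There 177 summits were found, 152 of them (85.9%) beyond the end, where 49.1% of the bases lay. The density was 56.3 per Mb beyond these ends and 8.92 per Mb inside them. By bins of 50 bp it was highest from 100 to 149 bp, with 41 summits and 151.5 per Mb, and it was 7.34 per Mb from 450 to 500 bp. In replicate 1 the same bin was highest, with 144.1 per Mb, while in replicate 2 the bin from 50 to 99 bp was, with 99.4 per Mb. Some of the 177 summits lay inside another protein-coding gene, as at T28F4.5, col-14 and col-41. Counting only genes wholly beyond the end, the next protein-coding gene was on the same strand for 137 of the 177. It lay a median of 3397 bp away. The same was not counted over all 7787 possible ends of this kind. Leaving out ends faced by another gene and summits near a start favours such neighbours, so this is no trait of the summits.

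**Figure D1:**
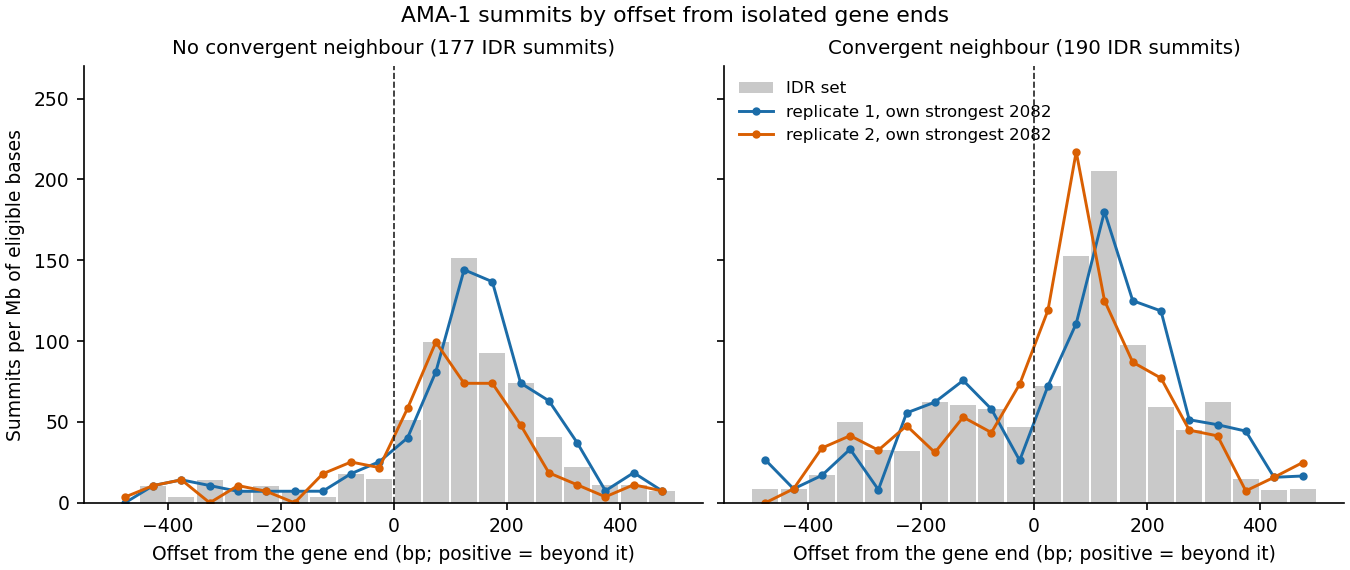
Gene-end summits per Mb of eligible bases (y) by offset from the annotated end in bins of 50 bp (x, positive beyond the end), for ends with no convergent neighbour (left) and with one (right). Grey bars are the IDR set and lines are the 2082 strongest peaks of each replicate; at ends with no convergent neighbour the IDR density reached 151.5 per Mb at 100 to 149 bp and was 14.5 per Mb in the last 50 bp of the gene.

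The ends of convergent genes held summits on both sides. A convergent neighbour is here a protein-coding gene on the other strand whose end lies within 1000 bp and which runs towards the gene. Of the 367 summits, 190 (51.8%) were at such an end, against 44.2% of the ends that could hold one. By gene, 188 of 6179 convergent ends (3.04%) held a summit and 168 of 7787 other ends (2.16%) did. The 190 made up more of the set than their space, since convergent ends supplied 35.2% of the eligible bases. Each replicate alone gave 49.9% (replicate 1) and 58.5% (replicate 2). Beyond the end lay 138 of the 190 (72.6%), of which 103 were at overlapping genes, where the geometry fixes the side. Within 500 bp of both ends lay 169 of the 190, so the peaks do not tell which gene of the pair the polymerase was on.

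How the pair was arranged set where the summit could fall. In 85 cases the genes were separated by a gap, with a median of 211 bp. There 35 summits lay between the ends, at 71.1 per Mb, and 50 lay inside the nearest-end gene, at 40.6 per Mb. The eligible bases were 0.492 Mb between the ends and 1.23 Mb inside, since a base past the middle of the gap counts for the partner. Where the ends are a few bp apart, almost any summit counts as inside, so the side is not a finding there. In 105 cases the annotated genes overlapped, by a median of 51 bp, and 103 of those summits lay inside the partner alone. For overlapping pairs the nearest-end rule counts a base outside the overlap as beyond the end, so the side is fixed by the geometry and is not a finding. M01H9.3 and M01H9.5, whose ends are 13 bp apart, held the strongest summit at convergent ends, 32 bp inside M01H9.3. Its signal was 294.5 in the IDR set, 195.9 in replicate 1 and 100.9 in replicate 2. Next in that order with a gap of under 200 bp was hsp-1, the constitutive Hsc70 chaperone, facing nra-1 at 125 bp, with the summit in the gap 37 bp beyond hsp-1.

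Beyond the end, most summits lay between genes or in another protein-coding gene. Of the 290, 152 were in no other annotated gene, and 119 were in another protein-coding gene: 79 in a coding exon, 27 in a 3′ UTR and 13 in an intron. The 290 include the 103 at overlapping convergent genes, which the nearest-end rule places inside the partner. The share of eligible bases in each kind of place was not computed, so these counts show no preference. The other 19 were in a non-coding gene or pseudogene alone, as at tmem-231 and mdl-1. Of the 77 at or before the end, 43 were in the 3′ UTR of the nearest-end gene, 31 in a coding exon and 3 in an intron. The median signals at these places were 63.8 beyond the end, 63.0 in the 3′ UTR and 67.3 in coding exons.

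The strongest gene-end summit, at mak-1, which encodes a MAP kinase activated protein kinase, had a signal of 310.6 and rank 20 of all 2082. It measured 245.6 in replicate 1 (rank 14) and 76.2 in replicate 2 (rank 87), and the replicates placed it 137 and 144 bp beyond the end. The summit of col-10, a cuticle collagen, had an IDR signal of 234.9. It stood at 232.3 in replicate 1 (rank 16), and the nearest summit of replicate 2 was 881 bp away. For hsp-1 the IDR signal was 224.2, with 69.8 in replicate 1 (rank 257) and 160.5 in replicate 2 (rank 14). These 3 show the range found among the strongest members: high in both lists, high in replicate 1 alone, and higher in replicate 2.

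Among the other strong members, zip-2, a bZIP transcription factor of the infection response, had 159.1 in replicate 1 and 56.8 in replicate 2. By rank it stood at 32 and 192. Its summit lay 173 bp beyond the end, inside the convergent gene dos-3. Another summit, with an IDR signal of 124.7, was nearest to the end of dos-3 and lay 305 bp beyond it, inside zip-2. That summit ranked 3644 in replicate 1 and 37 in replicate 2. For cah-4, a carbonic anhydrase gene, the signal was 170.0 in replicate 1 (rank 27) and 29.4 in replicate 2 (rank 1137), in the gap towards odr-1, a receptor guanylyl cyclase of olfactory neurons. The polyubiquitin gene ubq-1 had 152.3 and 26.2 in replicates 1 and 2, with ranks 34 and 1540. The Mad-like factor gene mdl-1 had 126.4 and 37.3, with ranks 55 and 608. By rank the summits named for zip-2, cah-4, ubq-1 and mdl-1 all stood higher in replicate 1.

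Other summits of this height ranked high in both libraries. For atp-1, the alpha subunit of ATP synthase, the signal was 111.6 in replicate 1 (rank 82) and 87.4 in replicate 2 (rank 64). For coq-6, a monooxygenase of ubiquinone synthesis, it was 72.5 and 98.2, with ranks 238 and 48, and the summit lay 110 bp inside the gene, whose end is 1 bp from that of tos-1. T28F4.5 had 108.0 and 66.2, with ranks 95 and 132, and its summit lay in T28F4.4. Of the 15 strongest gene-end summits, 14 had a summit within 100 bp in the lists of both replicates, and col-10 was the exception.

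**Figure D2:**
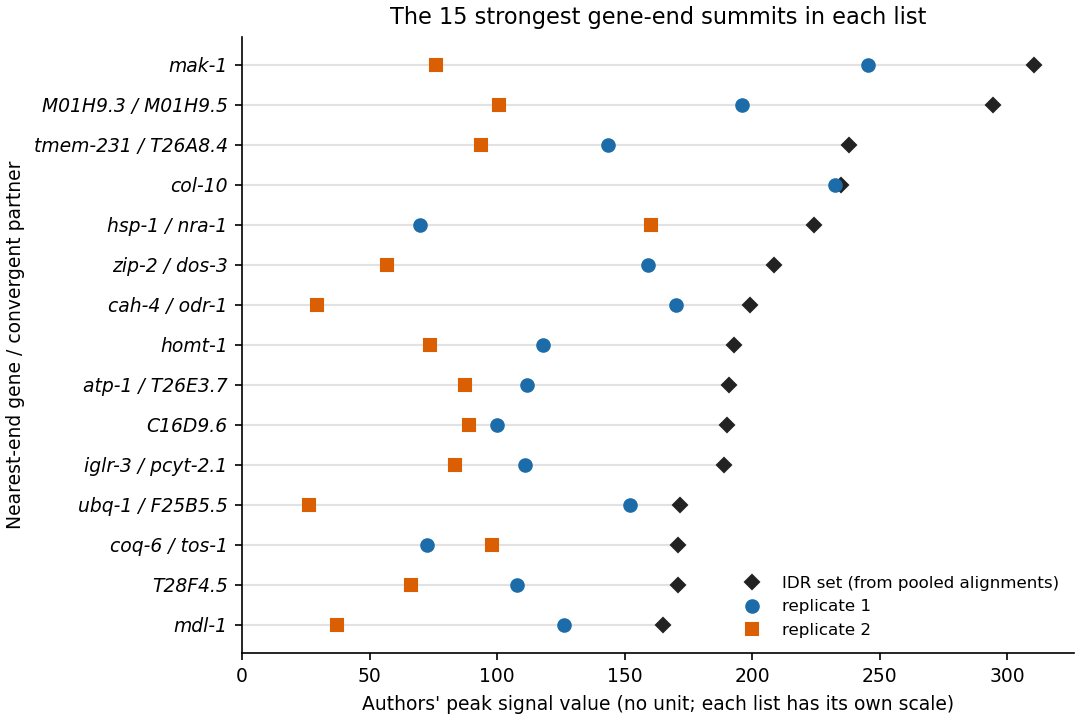
The authors' peak signal value (x, no unit) of the 15 strongest gene-end summits, strongest at the top, named by the nearest-end gene and any convergent partner. Diamonds are the IDR set, circles replicate 1 and squares replicate 2, each on the scale of its own list; col-10 has no square, and values of different lists are not on one scale.

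Small RNA genes lay near several of the strongest members. Of the 20 strongest gene-end summits, 6 lay within 500 bp of the start of a snoRNA, snRNA, tRNA or miRNA gene, at tmem-231 (snoRNA gene T26A8.6, 108 bp), homt-1 (Y74C9A.6, 114 bp), C16D9.6 (C16D9.10, 71 bp), iglr-3 (Y37E3.20, 162 bp), hmt-1 (the SL2 RNA gene sls-2.15, 84 bp) and C25H3.1 (C18A3.12, 93 bp). At tmem-231, homt-1 and C16D9.6 the summit lay inside the snoRNA gene, and at hmt-1 inside sls-2.15. The signal at tmem-231 was 143.4 in replicate 1 and 93.7 in replicate 2, and at C16D9.6 it was 99.9 and 88.8, so both libraries held them. Over all members such a gene was near 14 of 367 (3.81%), against 143 of 2082 IDR summits (6.87%). The median signal of members was 101.8 with one and 63.3 without. Neither these medians nor the count among the 20 strongest was taken over all IDR summits, so neither is read as a trait of gene ends. Which gene gave the signal at these 14 ends cannot be told apart from the peaks.

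Some genes with a gene-end summit had an IDR summit at their start too. Of the 356 nearest-end genes, 120 (33.7%) also had one of the IDR summits no farther than 500 bp from their start, against 4.61% of all genes whose end could hold one. The latter include genes with no IDR summit at all. By the height of the peak neither end of these genes led: the gene-end summit was higher in 58 and the start summit in 62. The median signal was 73.0 at the ends and 72.4 at the starts of the 120 genes. A difference of over 2-fold was found in 20 genes, with the end higher in 8 of them and the start in 12. At mdh-2, the mitochondrial malate dehydrogenase, the end had 157.1 and the start 48.4. At M01H9.3 the end had 294.5 and the start 99.9, and at hsp-1 they had 224.2 and 92.4. At T28F4.5 the order was the reverse, with 170.8 at the end and 289.8 at the start. A gene-end summit without one at the start was the more common case, at 236 genes, among them zip-2 and ubq-1. In both of these the summit lay inside the convergent partner. At convergent ends the peaks do not tell which gene of the pair the polymerase was on.

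**Figure D3:**
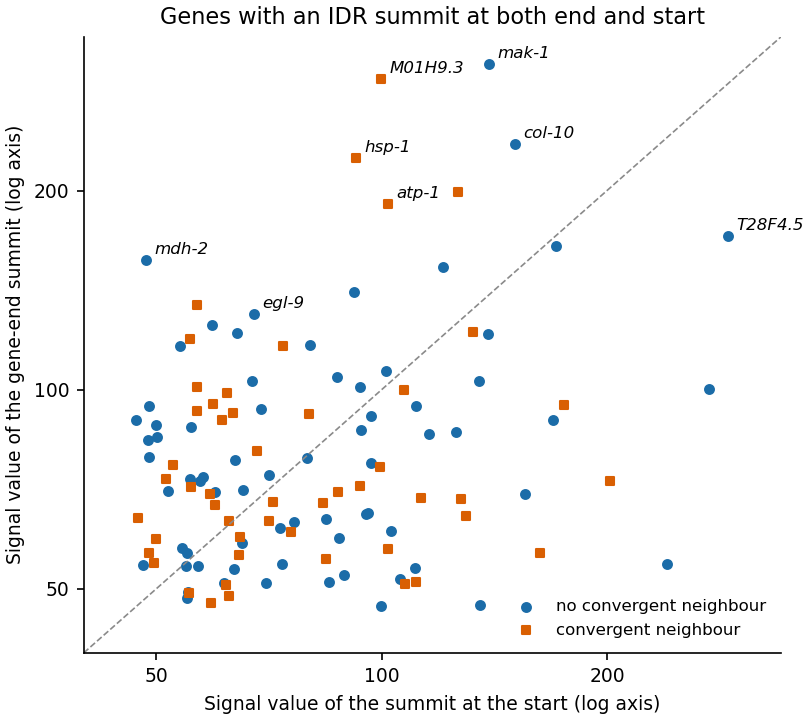
Signal value of the gene-end summit (y) against the highest IDR summit within 500 bp of the start of the same gene (x), for the 120 genes with both, on log axes with no unit. Circles have no convergent neighbour and squares have one; the dashed line marks equal values, with 58 genes above it and 62 below.

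By gene list, the share of possible ends with a gene-end summit ran from 0% to the 28.6% of glycolysis, beside 2.55% of all possible ends. Oxidative phosphorylation had one at 6 of 33 possible ends (18.2%): atp-1, cox-5A, nuo-4, cox-5B, ucr-1 and cox-6C. All 6 were among the 2082 strongest peaks of both replicates, as were 109 of the 367 members (29.7%), where the share over all IDR summits was 35%. For cox-5A, a subunit of cytochrome c oxidase, the signal was 75.4 in replicate 1 and 41.2 in replicate 2, at 183 bp beyond the end. For nuo-4, a subunit of complex I, it was 63.1 and 51.6, at 67 bp. The median IDR signal of the 6 was 105.5 and 63.6 for all members.

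Of the vacuolar ATPase, which pumps protons into acidic organelles, 3 of 13 ends held a summit, all beyond the gene: vha-14, vha-8 and vha-16. At vha-14 the replicates gave 62.4 and 61.4. Glycolysis had 2 of 7, with gpd-3, glyceraldehyde 3-phosphate dehydrogenase (66.1 in replicate 1, 27.6 in replicate 2), and aldo-2, aldolase (43.5 and 29.7). Both were among the strongest 2082 peaks of each replicate. These lists are short, and 1 gene moves their share by several percentage points.

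Of the proteasome and ubiquitin list, 4 of 17 ends held a summit: ubq-1, pas-6, rpn-11 and rpn-6.1. The replicates' own strongest peaks put summits at 2 of these 17 ends in replicate 1 and 6 in replicate 2. Translation factors had 5 of 18, with ife-3, an eIF4E cap-binding protein, highest. Its signal was 29.4 in replicate 1 (rank 2359) and 55.4 in replicate 2 (rank 209). For eef-1A.2, an elongation factor, it was 51.8 in replicate 1, and replicate 2 had no summit within 100 bp, the nearest being 102 bp away. None of the 5 was among the strongest peaks of both replicates.

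Ribosomal protein genes had 2 of 18 ends for the large subunit (rpl-3 and rpl-7A) and 2 of 15 for the small one (rps-6 and ubl-1, which encodes ubiquitin fused to a ribosomal protein). At rpl-3 the signal was 65.9 in replicate 1 and 34.7 in replicate 2, 33 bp inside the gene and 3 bp of gap from the end of tir-1. At rps-6 the replicates gave 46.9 and 44.9. Of the 82 ribosomal protein genes 33 had a possible end, and every base near the ends of the rest lies too close to a start.

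Splicing and RNA-binding proteins had 3 of 25 ends with a summit, rsp-8, rsp-3 and prp-8, of which rsp-8 and rsp-3 encode SR proteins. Chaperones had 2 of 29, hsp-1 and cct-7, and actin, tubulin and muscle genes 2 of 35, the actins act-2 and act-1. At act-2 the signal was 15.4 in replicate 1 (rank 8614) and 70.1 in replicate 2 (rank 107). At act-1 it was 49.4 in replicate 1 with no match in replicate 2. These near-identical actin genes therefore stood in opposite order in the replicates, and the sources used here do not say how reads shared by such copies were placed. The list of histones had 1 of 9 possible ends, his-24, a linker histone, with 79.6 in replicate 1 (rank 195) and 16.0 in replicate 2 (rank 4584). The intestinal protease list had 1 of 24, cpz-1, a cathepsin Z, with 69.7 and 17.5.

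The chemoreceptors, a family of receptors expressed in few neurons, had 3 of 832 possible ends (0.361%): sru-42, srt-47 and srz-83. All 3 were at convergent ends, facing F53E4.1, the RNA-binding protein gene hrpu-1 and the Rac GTPase gene ced-10. At srt-47 the signal was 25.6 in replicate 1 and 46.8 in replicate 2, with the summit 226 bp inside srt-47. Nuclear hormone receptors had 2 of 214 (nhr-3 and nhr-69), C-type lectins 1 of 190 (clec-1), homeobox and tissue regulators 1 of 87 (elt-3, a GATA factor of the hypodermis), and F-box genes (groups A to C) 0 of 237. The vitellogenins had 0 of 6, the cleavage, polyadenylation and termination factors 0 of 10 and RNA polymerase II subunits 0 of 1, counts too small to read as low. In all, 58 of the 356 genes were in one of the 21 lists.

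**Figure D4:**
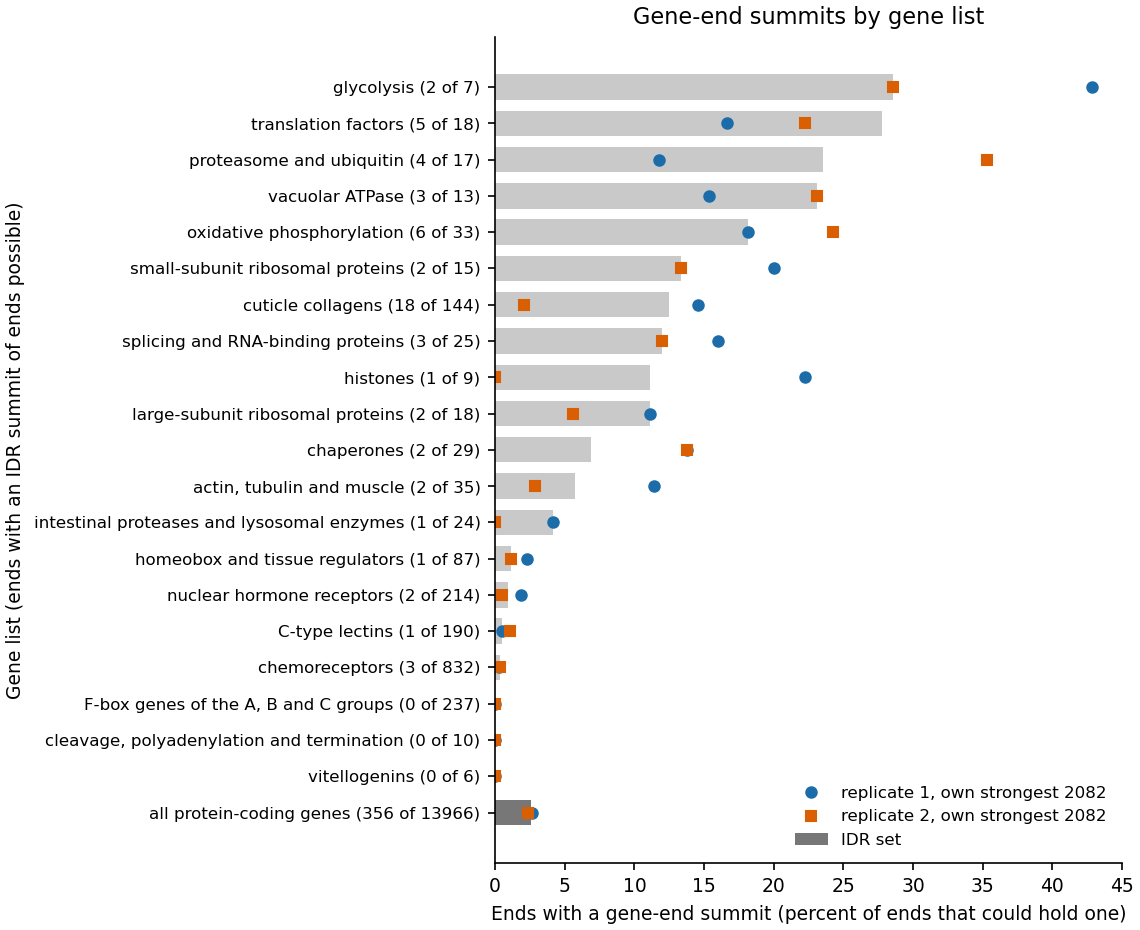
Percent of possible ends that held a gene-end summit (x) in each gene list of at least 5 possible ends (y), with the number of ends with an IDR summit of ends possible in brackets and all protein-coding genes at the bottom (2.55%). Bars are the IDR set, circles and squares the strongest 2082 peaks of replicates 1 and 2; the cuticle collagens stood at 14.6% in replicate 1 and 2.08% in replicate 2.

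The cuticle collagens, which the hypodermis makes for each new cuticle, had the most members of the 21 lists, and most of these were matched in the strongest peaks of replicate 1 alone. They held 19 gene-end summits at 18 of 144 possible ends (12.5%), of which 17 lay beyond the end, at a median of 148 bp. Of the 19, 17 were among the strongest 2082 peaks of replicate 1 and 2 among those of replicate 2, with 1 in both. In the full list of 30000 peaks replicate 1 had a summit within 100 bp of 18 and replicate 2 of 4. In replicate 2 the nearest summit of any strength was over 2000 bp away for 11 of the 19. Of the 348 other members, 66.1% were matched in replicate 1's strongest peaks and 58.6% in replicate 2's, and 14.9% had no match in replicate 2's full list.

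The matched collagen signals in replicate 1 had a median of 70.4 and reached 232.3, and the 4 in replicate 2 ran from 11.6 to 38.8. For col-103 the signal was 90.4 in replicate 1, and the nearest in replicate 2 was 676 bp away. For rol-6, whose mutants roll as they move, it was 79.9 in replicate 1, and the nearest summit of replicate 2 was 8022 bp away. For dpy-13, named for its short and stout mutants, it was 64.3 in replicate 1, with the nearest in replicate 2 at 10801 bp. For sqt-3 it was 64.1, with the nearest at 6155 bp.

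Of the 4 matched collagens, col-160 ranked 482 in replicate 1 and 1995 in replicate 2, col-90 519 and 8170, and col-94 1643 and 5893. The fourth went the other way, since col-106 ranked 14325 in replicate 1 and 546 in replicate 2, with the 38.8 named above. Its end faces nadk-1 across 375 bp. Over all 144 possible collagen ends, those of the IDR set included, the replicates differed too. Collagen ends outside the IDR set were not counted apart. Replicate 1's own strongest peaks had summits at 21 of the 144 ends (14.6%) and replicate 2's at 3 (2.08%), where over all possible ends the shares were 2.67% and 2.38%. In the full lists 39 collagen ends (27.1%) had one in replicate 1 and 19 (13.2%) in replicate 2, beside 19.6% and 18.8% of all possible ends.

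Over all gene-end summits the replicates held similar numbers but often not the same sites. Of the 367, 247 (67.3%) had one of the 2082 strongest summits of replicate 1 within 100 bp, where the share over all IDR summits was 67.2%. Replicate 2 matched 206 (56.1%), where it was 60%. Both matched 109, and 23 were in neither. Of IDR summits within 500 bp of a start and over 1000 bp from every end, 338 in number, 38.2% were matched in both. The full lists held 334 (replicate 1) and 300 (replicate 2) of the members, 269 in both, and 2 in neither. Of the 269, 137 had the better rank in replicate 1 and 132 in replicate 2, and for 61 the ranks differed over 10-fold, 32 of them better in replicate 1. Spearman's rho between the signals of the 269 in the replicates was -0.031, a description over sites that were taken by the signal of the pooled libraries. The IDR set was exactly the 2082 strongest pooled peaks, so a site strong in 1 replicate alone could be in it.

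With an unmatched summit counted as percentile 0, the members whose rank percentile differed most after col-10 were par-5, sru-42, col-166 and F28E10.4. The gene par-5 encodes a 14-3-3 protein, and its summit lay 320 bp inside the gene in the 3′ UTR. It had a signal of 83.2 in replicate 2 (rank 72), and the nearest summit of replicate 1 was 167 bp away. At sru-42 the signal was 95.3 in replicate 1, and at F28E10.4 it was 91.5, with the nearest summits of replicate 2 at 522 and 1166 bp. At col-166 it was 93.3 in replicate 1, with the nearest in replicate 2 at 8937 bp. In all 5, the difference rests on the lack of a match within 100 bp, and the peak of replicate 1 near par-5 had a signal of 17.6 (rank 6881). Of members matched in both lists, Y54G2A.11 had the better percentile in replicate 1 by 90.6 points (ranks 545 and 27726 in replicates 1 and 2). At pho-11 the ranks were 26609 and 320.

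**Figure D5:**
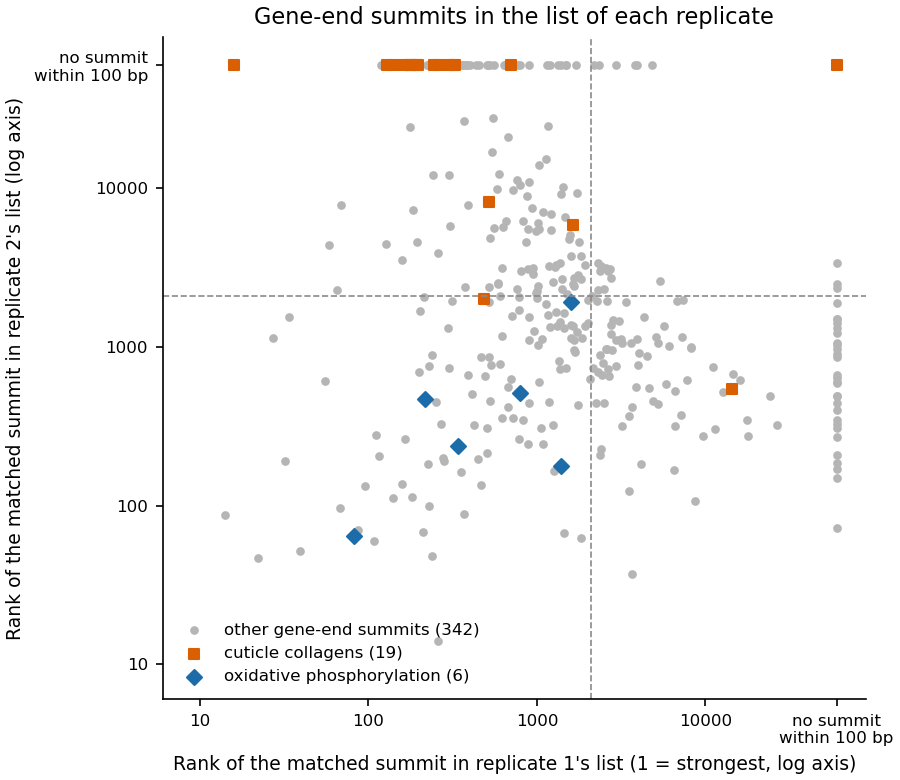
Rank of the matched summit in replicate 2's list (y) against replicate 1's (x), 1 being the strongest of 30000, on log axes, for the 367 gene-end summits. Squares are cuticle collagens and diamonds oxidative phosphorylation; dashed lines mark rank 2082, the outermost row and column hold summits with no match within 100 bp, and all 6 diamonds lie inside both lines while 15 of the 19 squares lie in the top row.

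For the 269 members matched in both full lists, the median distance between the replicates' summits was 32 bp, and 42.0% lay within 25 bp of each other, beside 40.3% of all IDR summits matched so. The matching within 100 bp limits how large this distance can be. The median offset of the 269 was 119 bp in replicate 1 and 103 bp in replicate 2, and at convergent ends 103 and 88 bp. Pair by pair, replicate 1 was farther downstream in 144 and replicate 2 in 122, with a median difference of 2 bp.

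Genes with 2 gene-end summits at 1 end were T28B11.1, W06H8.6, Y17G7B.17, arl-3, dpy-4, fkb-6, mak-1, tdo-2, ttr-15, wwp-1 and xbx-5. At mak-1 the second lay 426 bp inside the gene in an intron, with an IDR signal of 52.1 against 310.6 for the one beyond the end. In both replicates too it was the weaker of the pair, with 20.3 in replicate 1 and 42.2 in replicate 2. At tdo-2, tryptophan dioxygenase, the summits lay 76 bp beyond the end (70.6) and 160 bp inside it (53.9). At dpy-4, a cuticle collagen, both lay beyond the end, at 216 and 15 bp. At wwp-1, a ubiquitin ligase, they lay 29 and 231 bp beyond it.

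Further members of known function were chosen by eye after their values were seen and stand for no group. The transcription factor genes xbp-1 of the unfolded protein response and atfs-1 of its mitochondrial counterpart had summits 96 and 119 bp beyond their ends, and at xbp-1 the replicates gave 85.8 and 65.8. At atfs-1 they gave 72.2 and 32.3. The hypoxia factor gene hif-1 and egl-9, whose product hydroxylates HIF-1, had summits 56 and 70 bp beyond their ends. At egl-9 the replicates gave 83.7 and 49.5, and at hif-1 72.0 and 8.83, with rank 12193 in replicate 2. At mdh-2 the replicates gave 91.4 and 68.9. At cts-1, citrate synthase, replicate 1 gave 64.5, and the nearest summit of replicate 2 was 168 bp away. The 14-3-3 gene ftt-2 had 96.4 and 55.5, and cgh-1, a DEAD-box helicase of germline granules, had 61.4 and 75.9.

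In height the gene-end summits spanned much of the set. Their median signal was 63.6 with quartiles of 54.1 and 82.1, against 62.8 for all IDR summits and 62.0 for the 338 lone starts. It was 62.7 at convergent ends and 64.8 at the others. In the replicates' lists the matched members had medians of 41.9 (replicate 1, rank 975.5) and 29.7 (replicate 2, rank 1108.5). Across offsets the median ran from 60.5 for the 26 summits over 300 bp beyond the end to 67.3 for the 31 over 200 bp inside it.

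The poly(A) signal was found at about as large a share of these ends as of all others. AATAAA on the gene strand in the last 50 bases was found at 177 of 356 ends (49.7%), against 50.3% of all possible ends. The same letters on the other strand were found at 15.2% of the 356 and 16.2% of all. On the gene strand it began a median of 21 bases from the end, with quartiles of 23 and 19. At convergent ends 46.8% had it and at the others 53.0%. No AATAAA was found in that window at mak-1, which says nothing about its cleavage.

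The summits lay in sequence richer in G and C than a fixed position past ends without a peak. The median G+C share within 50 bases of the summit was 42.6% at gene-end summits, 43.6% at all IDR summits and 45.5% at lone starts. For the 152 beyond the end and in no gene it was 40.6%, against 33.7% at 130 bp past 9681 ends with no pooled peak within 500 bp. The 152 lay at varied offsets, so the positions were not matched pair by pair. Whether base composition affected the recovery of these regions was not tested.

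Chromosome III had the highest share of possible ends with a summit, 79 of 1770 (4.46%), and X the lowest, 32 of 2197 (1.46%). The other autosomes ran from 1.86% on V to 3.08% on I. Of the IDR summits of each chromosome, the gene-end summits were 20.1% on III (of 408) and 15.9% on X (of 201), beside 17.6% of the whole set. The median signal on X, 64.4, was within the range of the autosomes, 60.7 to 67.8.

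At the limits of the rule, Y54G2A.11 at 499 bp, ncs-2 at 484 bp and hmt-1 at 454 bp from the nearest end were the last taken, with signals of 58.0, 60.4 and 160.9. Just outside it were F31F7.2 at 505 bp (50.8), gei-17 at 506 bp (125.2) and acer-1 at 512 bp (82.3). By the distance from starts, mxl-3 at 1004 bp (106.7), cars-1 at 1006 bp (49.5) and let-754 at 1013 bp (49.2) were taken, and rps-7 at 1000 bp (49.6), ubc-25 at 984 bp (90.9) and dnj-5 at 980 bp (70.9) were not.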

How the data were processed

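AMA-1 ChIP-seq peaks of whole L4 larvae were analysed for 1 group of 2 biological replicates, as the labels number them. Per the deposited notes, each replicate's list of 30000 peaks came from its own alignments and a control, the pooled list from both alignments, and the IDR set from all of these. The signal value (column 7) is the authors' score for each peak and was used only within its own list. Not given in the sources used here: the aligner, the peak caller, read filters and the IDR threshold. The control was not analysed here. Read depth is unknown, so no limit of detection is given.

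Summits (start plus offset, 1-based, ce11) were set against gene models of Ensembl release 115 on WBcel235. In the genome sequence of that build from RefSeq, 99.8% of 31853 coding transcripts opened with ATG. An end could hold a summit when some base within 500 bp of it lay over 1000 bp from every protein-coding start. Summits of different lists were matched within 100 bp. The selection and matching were tested on simulated positions. Everything was computed with Python 3.11.15, pandas 2.3.3 and numpy 2.4.6. With 1 group there is no test between conditions, and shares stand beside those of all IDR summits or all possible ends.

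The members and the 21 lists were chosen with earlier results of these data known. Named genes are those of the 15 strongest members, the 5 whose rank percentile differed most between replicates, up to 2 strongest genes per list, 3 on each side of each limit, and genes with 2 members at 1 end. Other genes, including the rest of the lists and those at small RNA genes, were named after their values were seen. The alternatives were other windows and distances, every annotated transcript start and end, starts of other gene classes, fewer or more peaks, other matching rules and each replicate alone.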

Additional observations from a re-analysis of the deposited data

How the results depend on the processing

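Of 70 alternative values, only those of the median offset could change sign, and none of these did. Of the 52 that did not leave out a replicate, 40 stayed within the spread between the replicates (1 SD of 2), within the 95% Wilson interval of a share, or within 1.5 times a count. The 18 that left out a replicate are given as ranges only, since that SD comes from the same 2 values. The Wilson intervals count summits or ends as if independent, so they do not measure the spread between replicates. For the median signal the SD was taken between lists on different scales. The tally is therefore only a rough guide. Leaving out the convergent pairs, each replicate for the gene lists and the poly(A) signal, and the collagens were alternatives chosen after seeing the data. The number of gene-end summits was 190 at over 2000 bp from starts, 196 among the 1041 strongest IDR peaks and 713 in the strongest pooled peaks, double the IDR number. The share beyond the end was 82.2% with a window of 250 bp, 75.8% with 1000 bp and 85.9% at ends with no convergent neighbour. The median signal was 79.2 among those 1041 and 47.8 in the doubled pooled set, as follows from the peaks kept. The share matched in both replicates was 22.9% within 50 bp, 36.2% within 200 bp, 38.4% by any overlap and 73.3% in the full lists, where all IDR summits had 25.6%, 40.1%, 41.6% and 81.7%. Leaving out 1 replicate at a time, with the other's own peaks used instead, the number of summits was 340 to 389, the share beyond the end 75.9% to 79.7%, the median offset 81.5 to 125 bp, the convergent share 49.9% to 58.5%, the median signal 31.3 to 42.8 (on each list's own scale), the genes in any list 44 to 66, the collagen ends 3 to 21, the oxidative phosphorylation ends 6 to 8 and the share with AATAAA 43.5% to 53.6%. The 3 collagen ends were those without replicate 1. No value for the share matched in both can be had without a replicate. No paired analysis was possible because there is 1 group. The unknown read depth limits what an unmatched summit means.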
